A study of Mus musculus with 6 samples.

Results

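Genes of the Wnt pathway were followed in bone marrow-derived mesenchymal stromal cells (MSCs) carrying the thymoproteasome (TPr). Most of those chosen act at or outside the cell surface, while Axin2, Lef1 and Tcf7 act inside the cell. The members were taken by symbol: every Wnt, Fzd, Sfrp, Dkk and Rspo gene, plus Lrp5, Lrp6, Ror1, Ror2, Wif1, Axin2, Lef1 and Tcf7. This gave 49 of the 23420 genes counted, of which 25 reached 10 or more reads in at least 3 of the 6 libraries and are reported here. The same 25 passed edgeR's filter on low counts and were tested.

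The 3 libraries titled MSC are labelled Ctl MSC here (controls), and the 3 titled Tpr are labelled MSC-TPr (TPr libraries). By the study's methods, control MSCs were transduced with the empty AP2 retroviral backbone. MSC-TPr were given the same vector with the genes of 3 catalytic subunits, β5t (Psmb11), β2i (Psmb10) and β1i (Psmb9). The vector carries eGFP as its marker in both groups. The cells were flushed from femurs of female C57BL/6 mice 6 to 8 weeks old, were transduced at passage 5, and were grown in medium with serum. The sources used here do not say whether libraries of 1 group came from separate mice, transductions or cultures, so the p-values measure only the spread between these libraries.

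Wnt ligands bind Frizzled receptors together with Lrp5 or Lrp6, which stabilises β-catenin so that it can join the factors of the TCF/LEF family on target genes such as Axin2. Some ligands, among them Wnt5a, also signal through Ror receptors without β-catenin. Secreted frizzled-related proteins (Sfrp) and Wif1 capture ligands, Dickkopf proteins (Dkk) block Lrp5 and Lrp6, and R-spondins keep Frizzled at the surface. In bone marrow stroma the pathway is known for favouring bone-forming over fat-forming fate.

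Several facts of the libraries touch every value below. Reads on genes ranged from 16158756 to 22158887 per library, so that 3 reads, taken as the limit of detection, equal 0.139 to 0.181 CPM (counts scaled to a common library size), for counting error only. Psmb11 had 0.046 to 0.355 CPM, and neither it nor Psmb9 or Psmb10 stood above the controls in all 3 TPr libraries. On the first principal component (61.8% of the variance), Ctl MSC 1 lay with MSC-TPr 2 and 3 (−41.6 to −38.2), and MSC-TPr 1 with Ctl MSC 2 and 3 (36.7 to 42.5). The summed level of 8 cell division markers was 1329, 133 and 127 CPM in controls 1, 2 and 3 and 129, 1187 and 1252 CPM in TPr libraries 1, 2 and 3. Whether the labels of Ctl MSC 1 and MSC-TPr 1 were exchanged was not tested, and an exchange would change what every fold change, group mean and separation of groups over 6 libraries compares. For most genes named below, values are therefore given for each library, over all 6 libraries and without the pair numbered 1. Of the MSC markers, Cd44, Nt5e and Eng were detected in every library, while Thy1, which encodes CD90, had at most 1 read in any. The 9 haematopoietic and macrophage markers summed to 11.2 to 17.5 CPM and Ptprc, which encodes CD45, had at most 2 reads. Of these, Cd68 had 14.2 CPM in MSC-TPr 1, 9.67 and 7.39 CPM in controls 2 and 3, and at most 1.66 CPM in the other libraries. Cd14 and Csf1r had the opposite high libraries. Cd14 had 11.7, 3.37 and 3.53 CPM in controls 1, 2 and 3 and 3.27, 13.2 and 11.0 CPM in TPr libraries 1, 2 and 3. Csf1r had 0.725, 0.053 and 0.055 CPM against 0, 0.769 and 0.835 CPM. Of the 5 endothelial markers, Vwf had 21.4 CPM in MSC-TPr 1 and at most 3.37 CPM elsewhere. Pecam1 and Cdh5 had 0 reads in MSC-TPr 1. Pecam1 had 2, 3 and 4 reads in controls 1, 2 and 3, and Cdh5 had at most 1 read in any library. Kdr and Tek were highest in MSC-TPr 1 by a small margin, with 54 and 6 reads against at most 49 and 5 elsewhere. Nt5e, which encodes CD73, was lower in each TPr library (2.66 to 5.24 CPM) than in the controls (11.4 to 20.2 CPM), with a log2 fold change of −2.02 (edgeR adjusted p = 0.079, DESeq2 adjusted p = 2.04e-05). The part of these markers in the results below was not tested.

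Across the 6 libraries, none of the 25 genes passed an adjusted p of 0.05 (quasi-likelihood test of edgeR, adjusted after Benjamini and Hochberg over the 11974 genes tested). Of all genes, 0.0251% were called higher and 0.401% lower in MSC-TPr, 0.426% in either direction. At an unadjusted p under 0.05 there were 8, 3 of them higher and 5 lower, against 15% of all genes. DESeq2 called Wnt4 and Lef1 higher and Fzd3 lower, against 1.94% and 3.42% of its genes, 5.36% in all. The groups did not overlap for 4 genes that were higher (Wnt4, Lef1, Fzd5 and Fzd9) and 5 that were lower (Fzd1, Fzd3, Fzd6, Fzd8 and Sfrp1), against 10.6% and 12.1% of all genes tested, 22.6% in all.

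Leaving out Ctl MSC 1 and MSC-TPr 1 changed these counts. With 2 libraries per group, 12 members were called higher and 6 lower, against 23.3% and 22.1% of 12122 genes, 45.4% in all. In this fit label and cell division coincide: both controls left have a low sum of the division markers and both TPr libraries a high one, and all 8 markers were called higher, with a median log2 fold change of 3.51. The effects of the 2 cannot be told apart in any value given without the pair. The 6 lower members include Rspo3, which fell short of the minimum of 10 reads in 3 libraries. The median log2 fold change of the 25 genes was 0.07 over all 6 libraries, beside 0.01 for all genes, and 0.45 without that pair, beside −0.002. Between the libraries numbered 1 themselves, 15 of the 25 genes differed in the direction opposite to that among the libraries numbered 2 and 3, as did 62% of all genes.

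**Figure D1:**
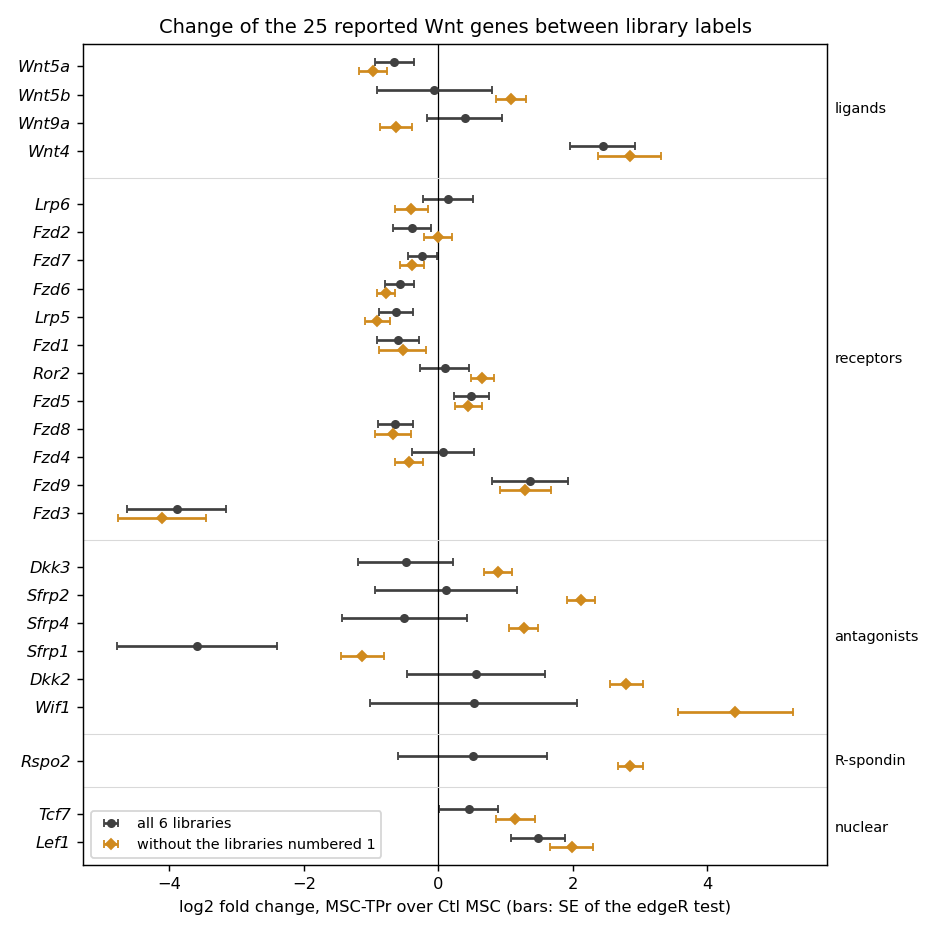
Log2 fold changes of the 25 reported genes (MSC-TPr over Ctl MSC, horizontal axis), by role, over all 6 libraries (circles) and without the libraries numbered 1 (diamonds), with bars for the standard error of the edgeR test. Wnt4, Lef1 and Fzd3 lie on the same side of 0 in both fits, at 2.44, 1.48 and −3.89 over 6 libraries, whereas Dkk3, Sfrp4, Wnt5b, Wnt9a, Lrp6 and Fzd4 cross it.

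Levels were compared between genes only per length, as CPM divided by the kilobases of exon (RPKM). Averaged over the 6 libraries, Dkk3 had 46.9 RPKM, Rspo2 28.0 and Sfrp2 26.6, means carried by Ctl MSC 1 and MSC-TPr 2 and 3. In Ctl MSC 2 and 3 and MSC-TPr 1, Rspo2 (4.87 to 7.01 RPKM) and Sfrp2 (3.24 to 9.25) were below Lrp6 and Fzd2, and in MSC-TPr 1 Dkk3 (14.6) was below Lrp6 (25.2). Among receptors, Lrp6 (17.4), Fzd2 (15.1), Fzd7 (8.97), Fzd6 (7.45) and Lrp5 (6.81) led. The most abundant ligand per length was Wnt5a at 2.72 RPKM, followed by Wnt5b at 1.25. The 6 values of Lrp6 ran from 10.4 to 25.2 RPKM and those of Fzd2 from 10.2 to 22.2, so that these neighbours in the order overlapped. Wnt5a and Wnt5b also overlapped, from 1.54 to 3.95 against 0.146 to 2.19 RPKM.

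**Figure D2:**
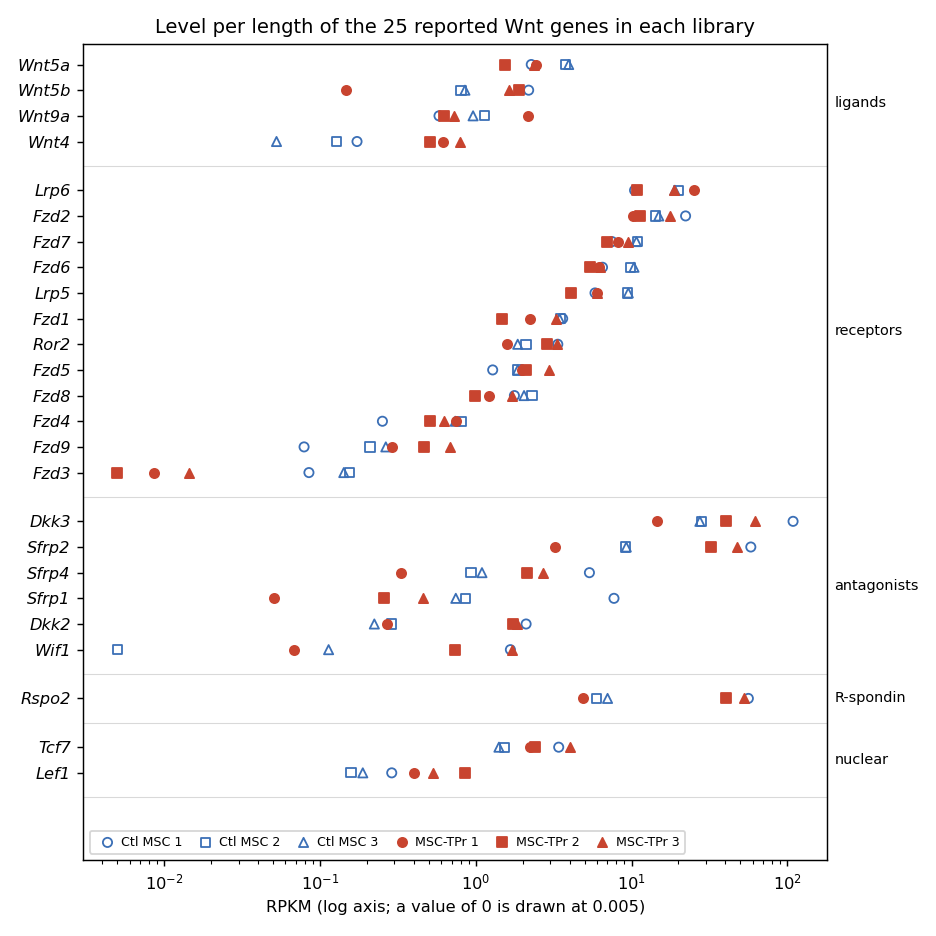
Level per length (RPKM, log axis) of each reported gene in each library, open symbols for Ctl MSC and filled symbols for MSC-TPr, ordered within each role by the mean of the 6 libraries. Several secreted regulators spread widely: Sfrp2 runs from 3.24 to 58.3 RPKM and Rspo2 from 4.87 to 56.2, while Fzd7 stays between 6.91 and 10.9. Fzd3 (0 to 0.154) and Wnt5b (0.146 to 2.19) also spread widely on this axis.

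Of the 19 ligand genes, 4 were reported. Wnt5a, a ligand known for β-catenin-independent signalling and located on chromosome 14 of mm10 from 28504750 to 28527448, measured 17.8, 29.4 and 30.9 CPM in controls 1, 2 and 3. It had 19.1, 12.1 and 18.4 CPM in TPr libraries 1, 2 and 3. Ctl MSC 2 and 3 lay above the other 4 libraries, and the groups overlapped through Ctl MSC 1. The log2 fold change was −0.65 (SE 0.295, edgeR adjusted p = 0.363) over 6 libraries and −0.97 (SE 0.211, edgeR adjusted p = 0.0129) without the pair numbered 1. Its exons overlap the antisense gene Gm2670, and whether the counting used the strand is not given in the sources used here.

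Wnt4, a ligand best known from kidney and gonad development, was called higher over all 6 libraries by DESeq2 and not by edgeR. The gene, on chromosome 4 from 137277489 to 137299726, had 0.725, 0.534 and 0.221 CPM in controls 1, 2 and 3, that is 12, 10 and 4 reads. The MSC-TPr libraries had 2.60, 2.13 and 3.34 CPM, that is 47, 36 and 72 reads. Every library labelled MSC-TPr was therefore above every library labelled Ctl MSC, at a low level. The means were 0.493 ± 0.255 CPM and 2.69 ± 0.610 CPM (SD, n = 3 each). The log2 fold change was 2.44 (SE 0.480), with an edgeR adjusted p of 0.104 and a DESeq2 adjusted p of 0.00046. The fit without the pair numbered 1 gave 2.85 (SE 0.467, edgeR adjusted p = 0.00496).

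Wnt5b and Wnt9a did not follow the labels. Wnt5b, a close relative of Wnt5a, measured 5.80, 2.14 and 2.26 CPM in controls 1, 2 and 3 and 0.388, 5.03 and 4.31 CPM in TPr libraries 1, 2 and 3. It was lowest in MSC-TPr 1 and highest in Ctl MSC 1, and its log2 fold change went from −0.06 over 6 libraries (SE 0.855, edgeR adjusted p = 0.980) to 1.08 without that pair (SE 0.221, edgeR adjusted p = 0.0107). Wnt9a, a ligand with a known part in joint formation, had 1.93, 3.79 and 3.20 CPM in the controls and 7.25, 2.07 and 2.41 CPM in MSC-TPr. MSC-TPr 1 alone stood above the rest, and the change of 0.39 (SE 0.559, edgeR adjusted p = 0.793) became −0.63 (SE 0.238, edgeR adjusted p = 0.0733) without the pair.

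The other 15 ligand genes stayed under the minimum. Wnt1, Wnt3, Wnt3a, Wnt8a and Wnt9b had 0 reads in all libraries, which allows up to 0.139 to 0.181 CPM per library. Wnt10a and Wnt10b each had their highest count in Ctl MSC 1, with 43 and 56 reads, and at most 9 reads in any other library. Wnt16 had 5, 1 and 5 reads in the controls and 0 in each MSC-TPr library, and Wnt7b had 0, 2 and 1 against 9, 9 and 3. Wnt2b had 2 to 12 reads, and Wnt2, Wnt6, Wnt7a, Wnt8b and Wnt11 had at most 6 in any library.

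The promoters of 3 members are shown because the first 2 were above the controls in all 3 TPr libraries, and the third, Dkk2, changed most with the choice of libraries among the members with a RefSeq promoter and reads in every library. Each runs from 250 bases before to 50 bases after a RefSeq start on the plus strand of GRCm38.p6, 5′ to 3′. Capitals mark a TCF/LEF core (CTTTGA or CTTTGT, either strand) or a TATA motif (TATAAA, either strand).
Wnt4, chr4:137277385-137277684: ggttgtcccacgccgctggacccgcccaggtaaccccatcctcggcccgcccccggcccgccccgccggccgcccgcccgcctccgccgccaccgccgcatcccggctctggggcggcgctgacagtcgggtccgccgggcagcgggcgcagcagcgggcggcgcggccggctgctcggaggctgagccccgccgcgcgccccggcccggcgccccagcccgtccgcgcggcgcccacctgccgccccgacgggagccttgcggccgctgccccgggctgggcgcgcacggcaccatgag
Lef1, chr3:131110047-131110346, the first of 4 listed starts: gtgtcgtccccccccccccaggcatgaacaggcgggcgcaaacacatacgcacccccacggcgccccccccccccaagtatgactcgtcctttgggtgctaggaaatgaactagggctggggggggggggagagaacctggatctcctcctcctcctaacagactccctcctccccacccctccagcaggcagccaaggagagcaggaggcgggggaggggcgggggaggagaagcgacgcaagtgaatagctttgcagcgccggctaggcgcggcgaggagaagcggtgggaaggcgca
Dkk2, chr3:132085042-132085341: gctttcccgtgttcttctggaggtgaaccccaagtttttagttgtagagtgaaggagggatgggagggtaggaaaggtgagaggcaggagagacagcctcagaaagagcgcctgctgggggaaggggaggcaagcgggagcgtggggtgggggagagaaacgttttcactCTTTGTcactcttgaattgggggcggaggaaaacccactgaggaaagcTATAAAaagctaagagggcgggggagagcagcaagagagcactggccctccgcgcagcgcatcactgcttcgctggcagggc
The Wnt4 promoter is 84.3% G or C with 51 CpG dinucleotides, the Lef1 promoter 67.3% with 18 and the Dkk2 promoter 57.7% with 11, where the median of 27025 promoters is 52.7% and 7. Dkk2 holds 1 TCF/LEF core and 1 TATA motif, and neither motif is in the Wnt4 and Lef1 windows. Among the 14 reported members with a promoter entry, 4 hold the TCF/LEF core and 3 the TATA motif, against 31.3% and 14.2% of all promoters. The matches describe letters in these windows, and binding was not measured.

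Receptors were the class with the highest share of members above the minimum, with 12 of 14 genes reported. Over 6 libraries, 7 of the 12 had a log2 fold change below 0 and 5 above, with a median of −0.32. The largest difference was in Fzd3, a Frizzled known for axon guidance and planar polarity, on chromosome 14 from 65192449 to 65262463. Its libraries held 18, 37 and 33 reads in controls 1, 2 and 3 (1.09, 1.98 and 1.82 CPM) and 2, 0 and 4 reads in TPr libraries 1, 2 and 3. All 3 MSC-TPr libraries were below all 3 controls, and the 0 reads of MSC-TPr 2 allow up to 0.177 CPM. Summed over each group, 88 against 6 reads is a 15.5-fold lower level in MSC-TPr after scaling (exact binomial 95% interval 6.85 to 43.4, counting error only). The fitted log2 fold change was −3.89 (SE 0.735) with an edgeR adjusted p of 0.0936 and a DESeq2 adjusted p of 0.000258. It was −4.11 (SE 0.652, edgeR adjusted p = 0.00439) without the pair numbered 1.

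Of the receptors with more reads, Fzd6, Fzd8 and Fzd1 were lower in every MSC-TPr library. Fzd6, known for tissue polarity, measured 31.4, 47.5 and 49.97 CPM in controls 1, 2 and 3 and 29.8, 26.2 and 30.4 CPM in MSC-TPr. Ctl MSC 1 lay just above MSC-TPr 3, so that the separation rests on a narrow gap. The log2 fold change was −0.58 (SE 0.217, edgeR adjusted p = 0.289), and −0.78 (SE 0.129, edgeR adjusted p = 0.00515) without the pair. Fzd6 shares exon sequence with Gm26704 on the opposite strand.

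Fzd8, one of the Frizzled receptors that pairs with Lrp6, had 10.6, 13.7 and 12.2 CPM in the controls and 7.31, 5.92 and 10.2 CPM in MSC-TPr. The gap between Ctl MSC 1 and MSC-TPr 3 was small, and the change of −0.64 (SE 0.265) had an edgeR adjusted p of 0.328. Fzd1 was steady in the controls at 15.2, 14.7 and 14.5 CPM and had 9.30, 6.15 and 13.8 CPM in MSC-TPr, a change of −0.60 (SE 0.311, edgeR adjusted p = 0.427). Here too MSC-TPr 3 lay just below the controls. Without the pair, Fzd8 gave −0.68 (edgeR adjusted p = 0.0839) and Fzd1 −0.53 (edgeR adjusted p = 0.258).

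Fzd5 and Fzd9 were higher in every MSC-TPr library. Fzd5, a β-catenin-linked Frizzled, had 8.88, 12.9 and 12.8 CPM in the controls and 13.7, 14.6 and 20.4 CPM in MSC-TPr, which differ on the log2 scale by 0.49 (SE 0.257, edgeR adjusted p = 0.428). Ctl MSC 2 lay just below MSC-TPr 1, and the change without the pair was 0.45 (SE 0.195, edgeR adjusted p = 0.108). The exons of Fzd5 overlap Gm38058 on the opposite strand. Fzd9, known for a part in bone formation, had 3, 9 and 11 reads in controls 1, 2 and 3 and 12, 18 and 34 in MSC-TPr. These are 0.181, 0.481 and 0.607 CPM against 0.664, 1.06 and 1.58 CPM, a change of 1.36 (SE 0.560, edgeR adjusted p = 0.324) and of 1.29 (SE 0.382, edgeR adjusted p = 0.0358) without the pair. The nearest libraries, Ctl MSC 3 and MSC-TPr 1, held 11 and 12 reads.

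**Figure D3:**
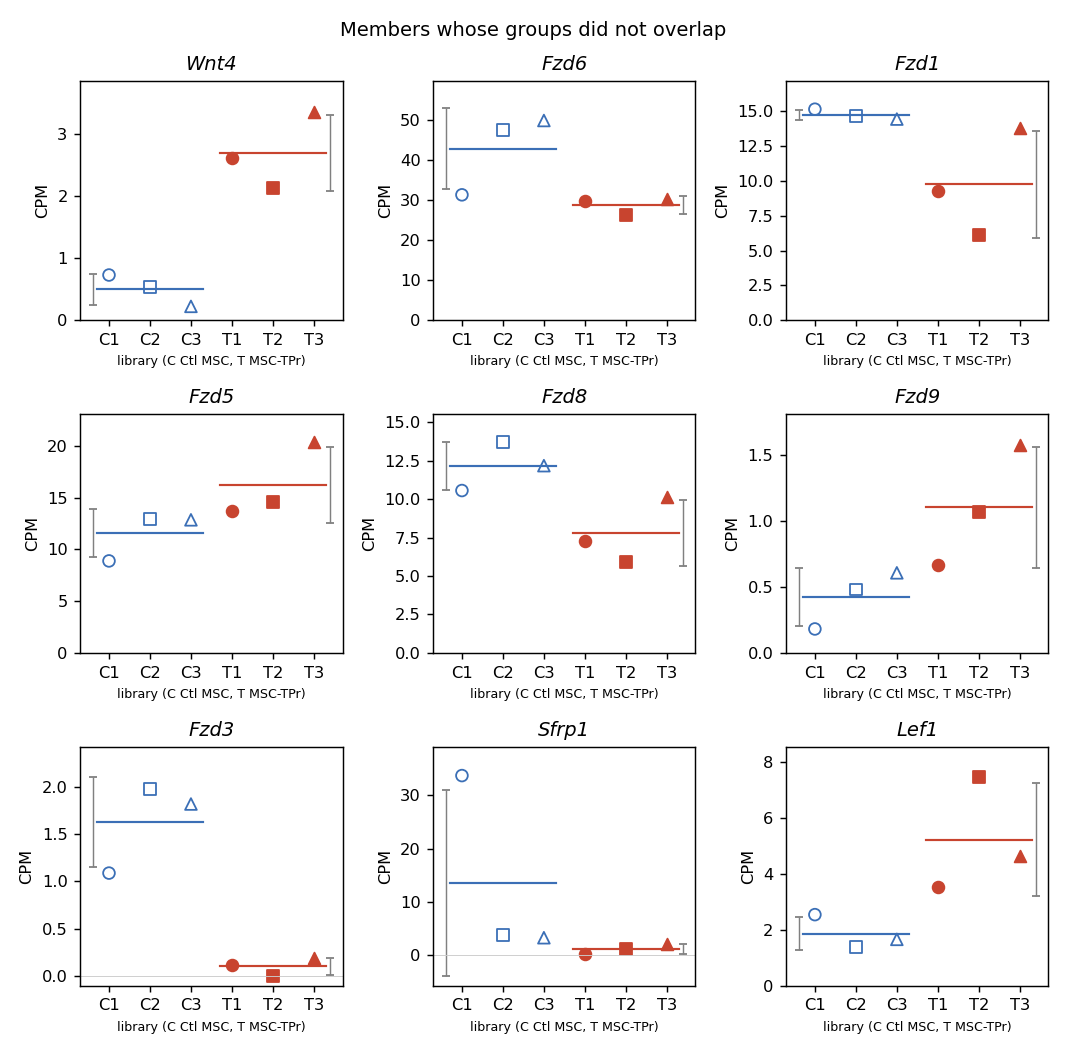
Level (CPM) of the 9 reported genes whose groups did not overlap, in each Ctl MSC library (C1 to C3, open) and MSC-TPr library (T1 to T3, filled), with the group mean as a line and its SD (n = 3) as a bar. Wnt4 and Fzd3 leave a wide gap between the groups, and Fzd1, Fzd5, Fzd6, Fzd8 and Fzd9 a narrow one. The Sfrp1 mean of Ctl MSC is carried by the 33.7 CPM of Ctl MSC 1.

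Lrp5 and Lrp6, the co-receptors for β-catenin signalling, overlapped between the groups. Lrp5, known for setting bone mass, measured 56.7, 92.2 and 92.8 CPM in controls 1, 2 and 3 and 58.0, 40.0 and 58.1 CPM in MSC-TPr. Ctl MSC 2 and 3 stood above the other libraries, the change was −0.63 (SE 0.257, edgeR adjusted p = 0.321), and −0.91 (SE 0.188, edgeR adjusted p = 0.011) was found without the pair. Lrp6 had 143, 275 and 259 CPM in the controls and 345, 149 and 255 CPM in MSC-TPr, with the highest value in MSC-TPr 1 and the lowest in Ctl MSC 1. Its change of 0.15 (SE 0.374, edgeR adjusted p = 0.888) turned to −0.40 (SE 0.248, edgeR adjusted p = 0.228).

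Fzd2 and Fzd7, the most abundant Frizzled genes, were called in neither fit. Fzd2 had 81.4, 52.1 and 54.8 CPM in the controls and 37.2, 41.6 and 64.2 CPM in MSC-TPr (log2 fold change −0.40, SE 0.280, edgeR adjusted p = 0.553). Fzd7 had 34.0, 49.5 and 48.7 CPM against 37.3, 31.3 and 43.3 CPM (−0.24, SE 0.216, edgeR adjusted p = 0.650). Fzd2 gave −0.009 (SE 0.210, edgeR adjusted p = 0.977) and Fzd7 −0.39 (SE 0.173, edgeR adjusted p = 0.112) without the pair. The groups overlapped in both. Ror2, the receptor of Wnt5a, had 14.3, 8.92 and 7.89 CPM in controls 1, 2 and 3 and 6.75, 12.1 and 14.2 CPM in MSC-TPr, so that Ctl MSC 1 lay beside MSC-TPr 2 and 3. It changed by 0.09 over 6 libraries (SE 0.364, edgeR adjusted p = 0.927) and by 0.65 without the pair (SE 0.171, edgeR adjusted p = 0.0244). Fzd4, a vascular Frizzled, had 1.69 CPM in Ctl MSC 1 and 3.43 to 5.45 CPM in the other 5 libraries. Ror1 had 0 to 3 reads per library and Fzd10 none, so that both stayed under the minimum.

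Secreted antagonists showed large differences between libraries of 1 label. Sfrp2, on chromosome 3 from 83766321 to 83774316, had 125, 19.7 and 19.9 CPM in controls 1, 2 and 3 and 6.98, 69.8 and 102 CPM in TPr libraries 1, 2 and 3. Ctl MSC 1, MSC-TPr 2 and MSC-TPr 3 were high and the other 3 low, as for the sum of the cell division markers given above, whose part in these values was not tested. The log2 fold change was 0.12 over 6 libraries (SE 1.06, edgeR adjusted p = 0.971) and 2.12 without the pair numbered 1 (SE 0.202, edgeR adjusted p = 0.000827). Gm26771 overlaps Sfrp2 exons on the opposite strand. In bulk RNA, fewer cells that express a gene and less RNA per cell cannot be told apart.

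Dkk3, an atypical Dickkopf that does not block Lrp6 in the usual way, measured 365, 94.0 and 92.2 CPM in the controls and 49.0, 135 and 209 CPM in MSC-TPr. Again Ctl MSC 1 was highest and MSC-TPr 1 lowest. Dkk3 changed by −0.49 over 6 libraries (SE 0.712, edgeR adjusted p = 0.798) and by 0.89 without the pair (SE 0.211, edgeR adjusted p = 0.0175), so that its direction depended on those libraries. Sfrp4, known for its effect on bone and phosphate, had 22.4, 3.90 and 4.58 CPM in the controls and 1.38, 8.93 and 11.4 CPM in MSC-TPr. It likewise turned from −0.51 (SE 0.927, edgeR adjusted p = 0.839) to 1.27 (SE 0.210, edgeR adjusted p = 0.00514).

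Dkk2 and Wif1, of lower level, had the same high and low libraries. Dkk2, a Dickkopf that binds Lrp6, had 7.79, 1.07 and 0.827 CPM in controls 1, 2 and 3 and 0.997, 6.45 and 6.77 CPM in MSC-TPr. Its change was 0.56 (SE 1.03, edgeR adjusted p = 0.840) over 6 libraries and 2.80 (SE 0.244, edgeR adjusted p = 0.000619) without the pair. Wif1, which binds Wnt ligands, held 67, 0 and 5 reads in the controls and 3, 30 and 90 in MSC-TPr. That is 4.05, 0 and 0.276 CPM against 0.166, 1.78 and 4.18 CPM, and the fitted change went from 0.52 (SE 1.54, edgeR adjusted p = 0.902) to 4.41 (SE 0.859, edgeR adjusted p = 0.00894). With 0 and 5 reads in the controls left, the latter value depends on the prior count of the fit.

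Sfrp1 was the 1 antagonist whose groups did not overlap. It lies on chromosome 8 from 23411502 to 23449632 and had 33.7, 3.74 and 3.25 CPM in controls 1, 2 and 3. MSC-TPr 1, 2 and 3 had 0.222, 1.12 and 1.995 CPM, all below the controls. The change of −3.58 over 6 libraries (SE 1.19, edgeR adjusted p = 0.245) shrank to −1.13 without the pair (SE 0.320, edgeR adjusted p = 0.0309), since Ctl MSC 1 held most of the control reads. DESeq2 gave Sfrp1 no p-value. Dkk1, Dkk4 and Sfrp5 had at most 1 read in any library.

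Rspo2 was the only R-spondin above the minimum. R-spondins bind Lgr receptors and raise the cell's response to Wnt ligands. Rspo2, on chromosome 15 from 43020794 to 43170826, measured 287, 30.5 and 35.8 CPM in controls 1, 2 and 3 and 24.9, 208 and 271 CPM in TPr libraries 1, 2 and 3. Ctl MSC 1 was at the level of MSC-TPr 2 and 3, and MSC-TPr 1 at that of Ctl MSC 2 and 3. The means of 118 ± 147 and 168 ± 128 CPM (SD, n = 3 each) differed by less than their spread, and the log2 fold change was 0.51 (SE 1.11, edgeR adjusted p = 0.863). The value without the pair was 2.85 (SE 0.180, edgeR adjusted p = 0.000223). Rspo3 had 5, 18 and 12 reads in the controls and 5, 1 and 3 in MSC-TPr, Rspo1 had 1 to 4 reads and Rspo4 none. Rspo3 was not tested over 6 libraries and changed by −2.89 without the pair (SE 0.584, edgeR adjusted p = 0.0102).

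**Figure D4:**
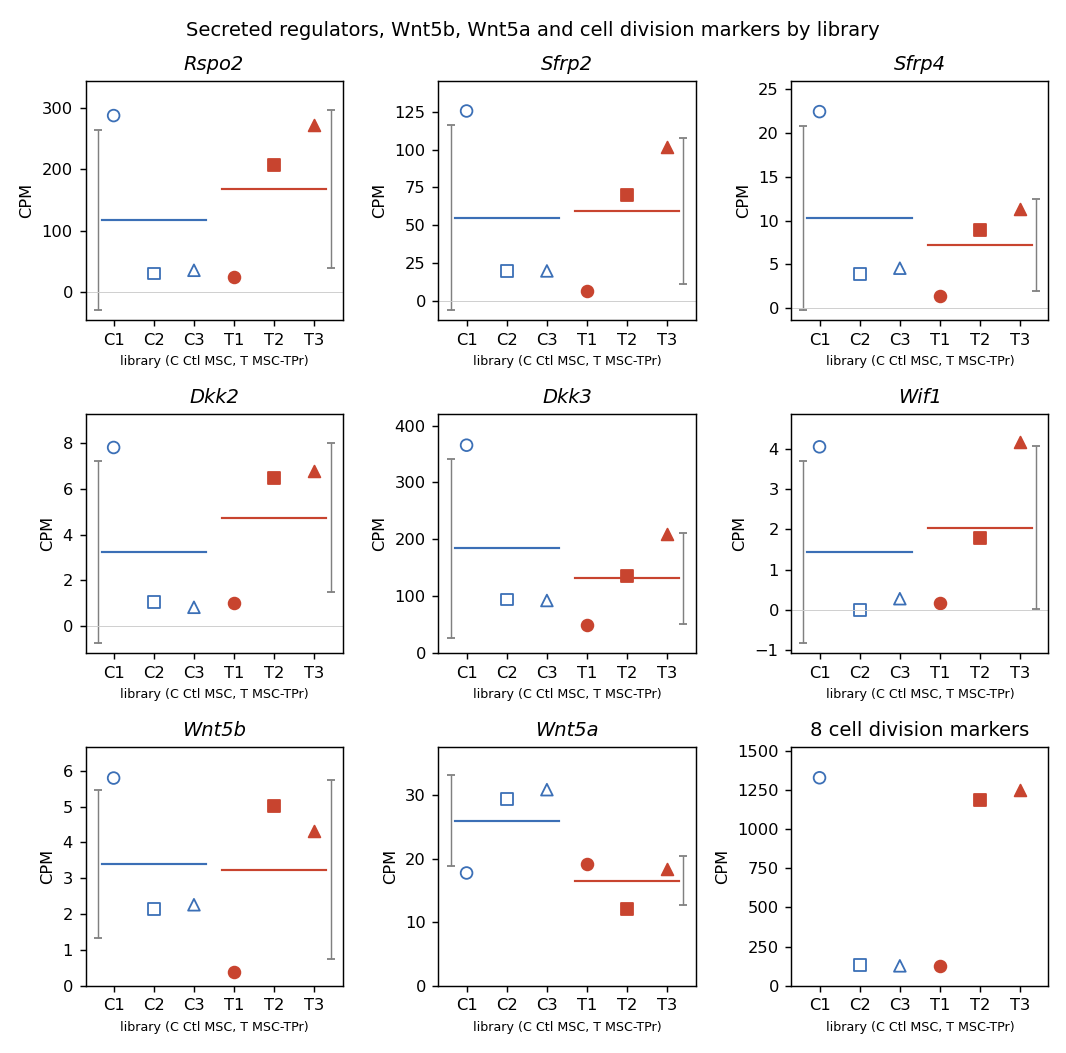
Level (CPM) of Rspo2, 5 antagonists, Wnt5b and Wnt5a in each Ctl MSC (C1 to C3) and MSC-TPr (T1 to T3) library, with group means as lines and SD (n = 3) as bars, beside the sum of 8 cell division markers, drawn without mean or SD. The secreted regulators and the marker sum are high in C1, T2 and T3 (marker sums of 1329, 1187 and 1252 CPM) and low in C2, C3 and T1, while Wnt5a is highest in C2 and C3.

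Lef1 and Tcf7 encode nuclear partners of β-catenin, and edgeR called neither over 6 libraries. Lef1, on chromosome 3 from 131110471 to 131224356, had 2.54, 1.39 and 1.66 CPM in controls 1, 2 and 3 and 3.54, 7.45 and 4.64 CPM in TPr libraries 1, 2 and 3. Every MSC-TPr library was above every control, and the means were 1.86 ± 0.601 and 5.21 ± 2.02 CPM (SD, n = 3 each). The log2 fold change was 1.48 (SE 0.400) with an edgeR adjusted p of 0.185 and a DESeq2 adjusted p of 0.023. Without the pair it was 1.98 (SE 0.317, edgeR adjusted p = 0.00455). The antisense gene Gm43352 overlaps its exons, so that its reads and those of Lef1 cannot be told apart if strand was not used.

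Tcf7 measured 8.94, 4.01 and 3.70 CPM in the controls and 5.87, 6.27 and 10.6 CPM in MSC-TPr, overlapping through Ctl MSC 1. Its change was 0.45 (SE 0.438, edgeR adjusted p = 0.677) over 6 libraries and 1.14 (SE 0.290, edgeR adjusted p = 0.022) without the pair. Axin2, the target gene most often used as a readout of β-catenin, had 0, 4 and 2 reads in the controls and 0, 2 and 0 in MSC-TPr. At that depth a difference in Axin2 was not detectable.

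The rest of the pathway was examined with 68 further genes in 7 lists, of which 54 were tested. None passed the adjusted p over 6 libraries with edgeR, and 3 had an unadjusted p under 0.05, against 15% of all genes. DESeq2 called Daam1 higher and Frzb lower among 56, against 1.94% and 3.42% of its genes. The groups of 6 genes lay apart with MSC-TPr higher and of 5 with MSC-TPr lower, against 10.6% and 12.1% of all genes. Without the pair numbered 1, edgeR called 6 higher and 12 lower of 55, against 23.3% and 22.1%.

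The destruction complex and Dishevelled list, which controls β-catenin turnover, had 14 of 14 genes tested and a median log2 fold change of −0.08, and 0 called higher and 7 lower without the pair. The nuclear partners had 12 of 12 tested, a median of −0.30 and 3 called lower without it. Of the 7 target genes tested without the pair, 3 were called higher (Nkd2, Ccnd1 and Wisp1) and 0 lower. The others were Myc (0.31), Twist1 (−0.01), Bambi (−0.02) and Tnfrsf19 (−1.04), and the median of the list was 0.31. Of all genes, 23.3% were called higher and 22.1% lower without the pair. Among secretion genes 4 of 5 were tested, among other receptors 7 of 9, among other extracellular inhibitors 3 of 8, in planar polarity 8 of 11 and among target genes 6 of 9. Their medians ran from −0.24 to 0.54.

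Frzb, which encodes Sfrp3 and belongs to the Sfrp family under another symbol, had the largest log2 fold change over 6 libraries among these genes. Without the pair, Lgr5 and Nkd2 had larger ones, at 4.04 and 2.64. Frzb had 3.75, 6.52 and 6.56 CPM in controls 1, 2 and 3 and 2.27, 1.24 and 1.72 CPM in MSC-TPr, each of the latter below the controls. The log2 fold change was −1.68 (SE 0.365, edgeR adjusted p = 0.127, DESeq2 adjusted p = 0.00296). Daam1, a formin that links Dishevelled to the actin skeleton, had 17.2, 21.6 and 18.8 CPM in the controls and 30.2, 43.7 and 37.9 CPM in MSC-TPr. It was higher in all MSC-TPr libraries, by 0.96 (SE 0.204, edgeR adjusted p = 0.123, DESeq2 adjusted p = 0.00303). Without the pair, Frzb gave −2.12 (edgeR adjusted p = 0.00147) and Daam1 1.02 (edgeR adjusted p = 0.00297).

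Other genes whose groups did not overlap had smaller differences. Wisp1, a matricellular target gene, changed by 0.72 (edgeR adjusted p = 0.230) and Axin1 by 0.51 (edgeR adjusted p = 0.403). Myc changed by 0.45 (edgeR adjusted p = 0.374) and Prickle2 by 0.39 (edgeR adjusted p = 0.386). These became 0.60 for Wisp1 (edgeR adjusted p = 0.0146) and 0.11 for Axin1 (edgeR adjusted p = 0.434) without the pair. Myc then gave 0.31 (edgeR adjusted p = 0.162) and Prickle2 0.43 (edgeR adjusted p = 0.052). Axin1 had 64.4, 98.5 and 100.5 CPM in controls 1, 2 and 3. It had 160.5, 105.3 and 109 CPM in TPr libraries 1, 2 and 3. Csnk1d, Wls and Tmed2 changed by −0.29, −0.28 and −0.25 (edgeR adjusted p from 0.429 to 0.523). Their changes without the pair were −0.42, −0.38 and −0.19 (edgeR adjusted p = 0.0323, 0.034 and 0.275). Ctnnb1, which encodes β-catenin, had 683, 536 and 541 CPM in the controls and 465, 506 and 513 CPM in MSC-TPr, a change of −0.25 (SE 0.166, edgeR adjusted p = 0.535). The change of Ctnnb1 without the pair was −0.08 (SE 0.114, edgeR adjusted p = 0.603). Its exons overlap Ulk4 on the opposite strand.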

How the data were processed

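RNA-seq libraries of polyadenylated RNA (stranded kit, paired ends) comprised 3 titled MSC, taken as the controls, and 3 titled Tpr. The authors aligned the reads to mm10 and deposited raw counts per gene from Htseq-count, without normalization. The submitters' processing notes name CASAVA 1.8.2, Trimmomatic 0.35 and TopHat2 2.1.0. The strand setting and annotation are not given in the sources used here. The 5 rows that name no gene (13.8% to 20.8% of each column) were left out.

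The tests were run with edgeR 4.0.16 under R 4.3.3 (TMM, filterByExpr, quasi-likelihood test, group as the only term, Benjamini-Hochberg over all genes tested, threshold 0.05). The SE is the log2 fold change divided by the root of F. DESeq2 1.42.0 (Wald test) was an alternative. CPM use TMM-scaled library sizes, and RPKM divide them by the union of exons in GENCODE M21 (mm10). Both tools recovered planted changes when tested on simulated data. Those changes were large, in genes with more reads than Wnt4 or Fzd3 and with less spread between libraries than here. No simulated library was made to depart from its group. The recovery therefore does not show what could be detected for the members in these libraries. Motifs and figures used Python 3.11.15. Promoters are those of RefSeq on GRCm38.p6, the build of mm10, with an entry for 14 of the 25 reported members.

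Full values are given for reported members called over 6 libraries or without the libraries numbered 1, and for those whose groups did not overlap. They are also given for the 3 most abundant reported members per length of each role, and for Lef1 and Tcf7. Axin2 and Rspo3, under the minimum, are given in reads, Rspo3 with its fit without the pair. Other pathway genes are named when called over 6 libraries, or as the 5 per direction with the largest change among those whose groups did not overlap, plus Ctnnb1. The members and lists were chosen with earlier results of these data known. No 2 libraries held identical counts. Leaving out libraries, other normalizations and filters and the replicate number as a block were tried.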

Additional observations from a re-analysis of the deposited data

How the results depend on the processing

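No member was called by edgeR under RLE or upper quartile normalization, without a filter, with at least 10 counts in every library, with the replicate block, or with any 1 library left out. DESeq2 called 2 members higher and 1 lower, 251 and 442 of all genes, and 1 and 1 of the other pathway genes. Without libraries, the members called ranged from 0 to 12 higher and from 0 to 6 lower, all genes from 0 to 2828 and from 0 to 2673, and the other pathway genes from 0 to 6 and from 0 to 12, with the upper ends all reached without replicate 1. Of all genes, 3 were higher and 105 lower without Ctl MSC 1, and 11 and 33 without MSC-TPr 1. Requiring 10 counts in every library gave 29 genes lower of all genes. The correlations of same-numbered deviations from the group means across genes were −0.779, −0.635 and −0.625. Among differently numbered libraries, Ctl MSC 1 gave 0.651 and 0.626 with MSC-TPr 2 and 3. MSC-TPr 1 gave 0.739 and 0.754 with Ctl MSC 2 and 3. Ctl MSC 2 with MSC-TPr 3 gave −0.577, and Ctl MSC 3 with MSC-TPr 2 gave −0.611. Library 1 of each label lay with the other label on the first principal component, which weighs on all of these deviations. The correlations therefore cannot show whether same-numbered libraries shared a culture or day. With the replicate number as a block, 0 of all genes were called higher and 0 lower.

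Of the 25 members, 13 kept their direction in every alternative that gave them a value and 12 did not. There were 15 alternatives, or 14 for Fzd3, Fzd9, Sfrp1, Wnt4, Wnt5b and Wif1, which the minimum of 10 counts in every library removed. The 12 changed direction when libraries were left out. Their log2 fold changes then ranged from −0.25 to 2.80 for Dkk2, −1.32 to 0.89 for Dkk3, −0.43 to 0.47 for Fzd4, −0.45 to 2.85 for Rspo2, −0.92 to 2.12 for Sfrp2, −1.35 to 1.27 for Sfrp4, −0.77 to 1.08 for Wnt5b, −0.63 to 0.91 for Wnt9a, −0.40 to 0.58 for Lrp6, −0.093 to 1.14 for Tcf7, −1.06 to 4.41 for Wif1 and −0.30 to 0.65 for Ror2. The cause was not tested. With 1 library left out at a time, the lowest edgeR adjusted p was 0.0737 for Fzd3, 0.0785 for Wnt4, 0.0966 for Fzd6 and 0.118 for Lef1. Depth limits Fzd3, Fzd9, Sfrp1, Wif1, Wnt4 and Wnt5b, each with under 10 reads in some library.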

Other observations

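Some pathway genes outside the rule for named genes were chosen after their values were seen. Lgr5, a receptor of R-spondins and itself a known β-catenin target, had 27.1, 2.56 and 3.03 CPM in controls 1, 2 and 3. TPr libraries 1, 2 and 3 had 3.82, 25.8 and 65.8 CPM. The high libraries were those of its ligand Rspo2, and also those of Sfrp2 and of the cell division markers. The same libraries lay together on the first principal component, so the match is not particular to Lgr5 and Rspo2. Lgr5 changed on the log2 scale by 1.55 with all libraries (SE 1.23, edgeR adjusted p = 0.605) and 4.04 without the libraries numbered 1 (SE 0.497, edgeR adjusted p = 0.00193). Lgr4, another R-spondin receptor, changed by −0.08 (SE 0.180, edgeR adjusted p = 0.863) and by 0.04 without the pair (SE 0.171, edgeR adjusted p = 0.866). Lgr6, of the same family, changed by 0.64 (SE 0.406, edgeR adjusted p = 0.510) and by 0.82 without the pair (SE 0.301, edgeR adjusted p = 0.0679).

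Ccnd1, a cyclin of the G1 phase listed among the targets, had 323, 135 and 125 CPM in the controls and 142, 370 and 393 CPM in MSC-TPr. Nkd2, a feedback inhibitor that binds Dishevelled, had 3.38, 0.908 and 0.938 CPM against 1.16, 5.15 and 6.36 CPM. Both were lower in MSC-TPr 1 than in Ctl MSC 1. Sp5, another target, had no read in any library.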
